A study of Mus musculus with 4 samples.

Results

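Irf1, Irf4 and Irf7 encode 3 members of the interferon regulatory factors, and open chromatin and footprints around them were compared between classical dendritic cells type 1 (cDC1) and plasmacytoid dendritic cells (pDC) of the mouse. The loci were taken as 3 windows of the mm9 genome build, on chromosome 11 from 53.54 to 53.63 Mb for Irf1 (90 kb), on chromosome 13 from 30.79 to 30.92 Mb for Irf4 (130 kb) and on chromosome 7 from 148.42 to 148.48 Mb for Irf7 (60 kb). Every peak interval and footprint that overlapped a window was a member. This gave 39 of 83701 intervals and 255 of 513689 footprints in cDC1, and 29 of 51941 intervals and 190 of 312959 footprints in pDC. Merged over both cell types, the intervals formed 43 of 93615 open regions, 13 at Irf1, 20 at Irf4 and 10 at Irf7.

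The study, which evaluated HINT-ATAC, a method that finds the footprints of bound factors in ATAC-seq data, profiled both cell types by Omni-ATAC-seq, which reads out open chromatin by transposase insertion after a lysis that lowers mitochondrial reads. Both cell types came from a bone marrow culture with Flt3 ligand, and no genotype, strain or age is given in the labels. cDC1 were sorted as CD11c+ CD11b+ XCR1+ cells and pDC as CD11c+ CD11b- B220+ cells, with 2 replicates each. The authors merged the replicates, so each cell type is 1 list of peaks and 1 list of footprints, no spread between replicates can be given, and no p-value was computed.

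Interferon regulatory factors share a DNA-binding domain that recognises repeats of the letters GAAA, the core of the interferon-stimulated response element. IRF1 is induced by interferon and activates genes of antigen presentation and host defence. IRF4 acts in B cells, T cells and dendritic cells, where it is best known from the other classical subset, cDC2, and binds composite sites together with ETS factors such as PU.1 or with BATF and JUN proteins. IRF7 is the main inducer of type I interferon genes, and pDC are known for keeping it at a high level and for secreting large amounts of type I interferon. cDC1 take up antigen from other cells, present it to CD8 T cells, and depend on the factors IRF8 and BATF3.

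The promoters of the 3 genes are shown because Irf1 and Irf7 are known targets of the interferon response, so that the response element and related letters can be looked for. They are the 250 bases before the start site in RefSeq, in the GRCm38.p6 build, 5′ to 3′ on the strand of the gene. Their coordinates cannot be set against the mm9 positions of the peaks, so no open region is called a promoter here. Capitals mark GC boxes (GGGCGG or its reverse complement), the letters recognised by SP1-like factors.
Irf1 (chr11:53769764-53770013, + strand): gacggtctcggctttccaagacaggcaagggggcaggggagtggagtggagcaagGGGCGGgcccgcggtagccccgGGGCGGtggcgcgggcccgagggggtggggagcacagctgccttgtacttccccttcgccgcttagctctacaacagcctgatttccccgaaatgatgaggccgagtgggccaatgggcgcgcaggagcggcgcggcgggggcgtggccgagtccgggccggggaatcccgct
Irf4 (chr13:30748983-30749232, + strand): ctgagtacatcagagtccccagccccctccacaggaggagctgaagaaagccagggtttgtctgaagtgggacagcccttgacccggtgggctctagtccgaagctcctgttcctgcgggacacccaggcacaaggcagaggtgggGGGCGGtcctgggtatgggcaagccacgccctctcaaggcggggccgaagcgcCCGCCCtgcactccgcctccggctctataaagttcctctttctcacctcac
Irf7 (chr7:141266425-141266674, − strand): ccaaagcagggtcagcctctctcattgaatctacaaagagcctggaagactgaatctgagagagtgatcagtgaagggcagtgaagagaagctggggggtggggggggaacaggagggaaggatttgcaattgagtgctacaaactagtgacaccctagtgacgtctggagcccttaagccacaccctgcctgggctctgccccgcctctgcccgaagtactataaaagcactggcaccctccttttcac

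The Irf1 promoter shown, that of the second Irf1 start site listed in RefSeq and that of Irf4 held 2 GC boxes each, and the Irf7 promoter held none. At least 1 GC box was present in 32.7% of 32851 mouse promoters of this length. None of the 4 Irf promoters held the core of the response element (GAAA and GAAA with 2 bases between them, in 2.98% of all promoters) or the ETS-IRF composite (GGAA and GAAA with 2 bases between them, in 2.3%). The form of the kappa B letters searched (GGG and TTTCC with 2 bases between them, in 1.41%) was not found. Kappa B sites of other letters were not looked for, so their absence cannot be read from this. The AP-1 letters TGANTCA (6.75%) were not found either, and all searches covered both strands. The ETS-IRF letters can overlap the response element core. A match is a description of letters, and a missing match says only that these letters are not in this window.

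In RefSeq order, Irf1 lies between Il5, the cytokine gene of eosinophil growth, and Slc22a5, a carnitine transporter gene. The genes next to Irf4 are Dusp22 and Exoc2, and those next to Irf7 are Phrf1 and Cdhr5. No mm9 annotation was used here, so regions are given by position without exon, intron or gene, a region of a window may belong to a neighbour, and neither the surface markers of the 2 cell types nor other interferon regulatory factor genes were looked up.

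More intervals were listed in cDC1 than in pDC at each locus. The Irf1 window had 12 intervals over 8146 bp in cDC1 and 10 over 6060 bp in pDC. The Irf4 window had 19 over 8098 bp in cDC1 and 12 over 4992 bp in pDC, and the Irf7 window 8 over 4791 bp in cDC1 and 7 over 4224 bp in pDC. Over the whole lists there were 83701 intervals in cDC1 and 51941 in pDC, a ratio that Irf4 came close to, while Irf1 and Irf7 were nearer to even. The −log10 q of MACS2, the peak caller, had medians of 74.2 in cDC1 and 24.8 in pDC at Irf1, of 22.7 in cDC1 and 16.9 in pDC at Irf4 and of 81.0 in cDC1 and 16.5 in pDC at Irf7. Over the whole lists the medians were 30.4 in cDC1 and 13.5 in pDC. The −log10 q grows with depth, which was not measured here, and the cDC1 list is taken as the deeper one from the higher counts listed with its footprints. The value therefore orders intervals within a list, and a difference between the lists is not read as more open chromatin.

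Of the 43 regions, 24 (55.8%, 95% Wilson interval 41.1 to 69.6%) were open in both cell types. A further 15 (34.9%) were found in cDC1 alone, and 4 (9.30%) in pDC alone. Genome-wide the corresponding shares were 43.5% for regions of both cell types, 45.5% for those of cDC1 alone and 11% for those of pDC alone. At Irf1 8 of 13 regions were open in both (61.5%, 35.5 to 82.3%), at Irf4 11 of 20 (55%, 34.2 to 74.2%) and at Irf7 5 of 10 (50%, 23.7 to 76.3%). Each of these intervals holds the genome share of 43.5%, so with this few regions no difference of a locus from the genome was detectable. Wilson intervals cover counting error only, and neighbouring regions are not independent.

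**Figure D1:**
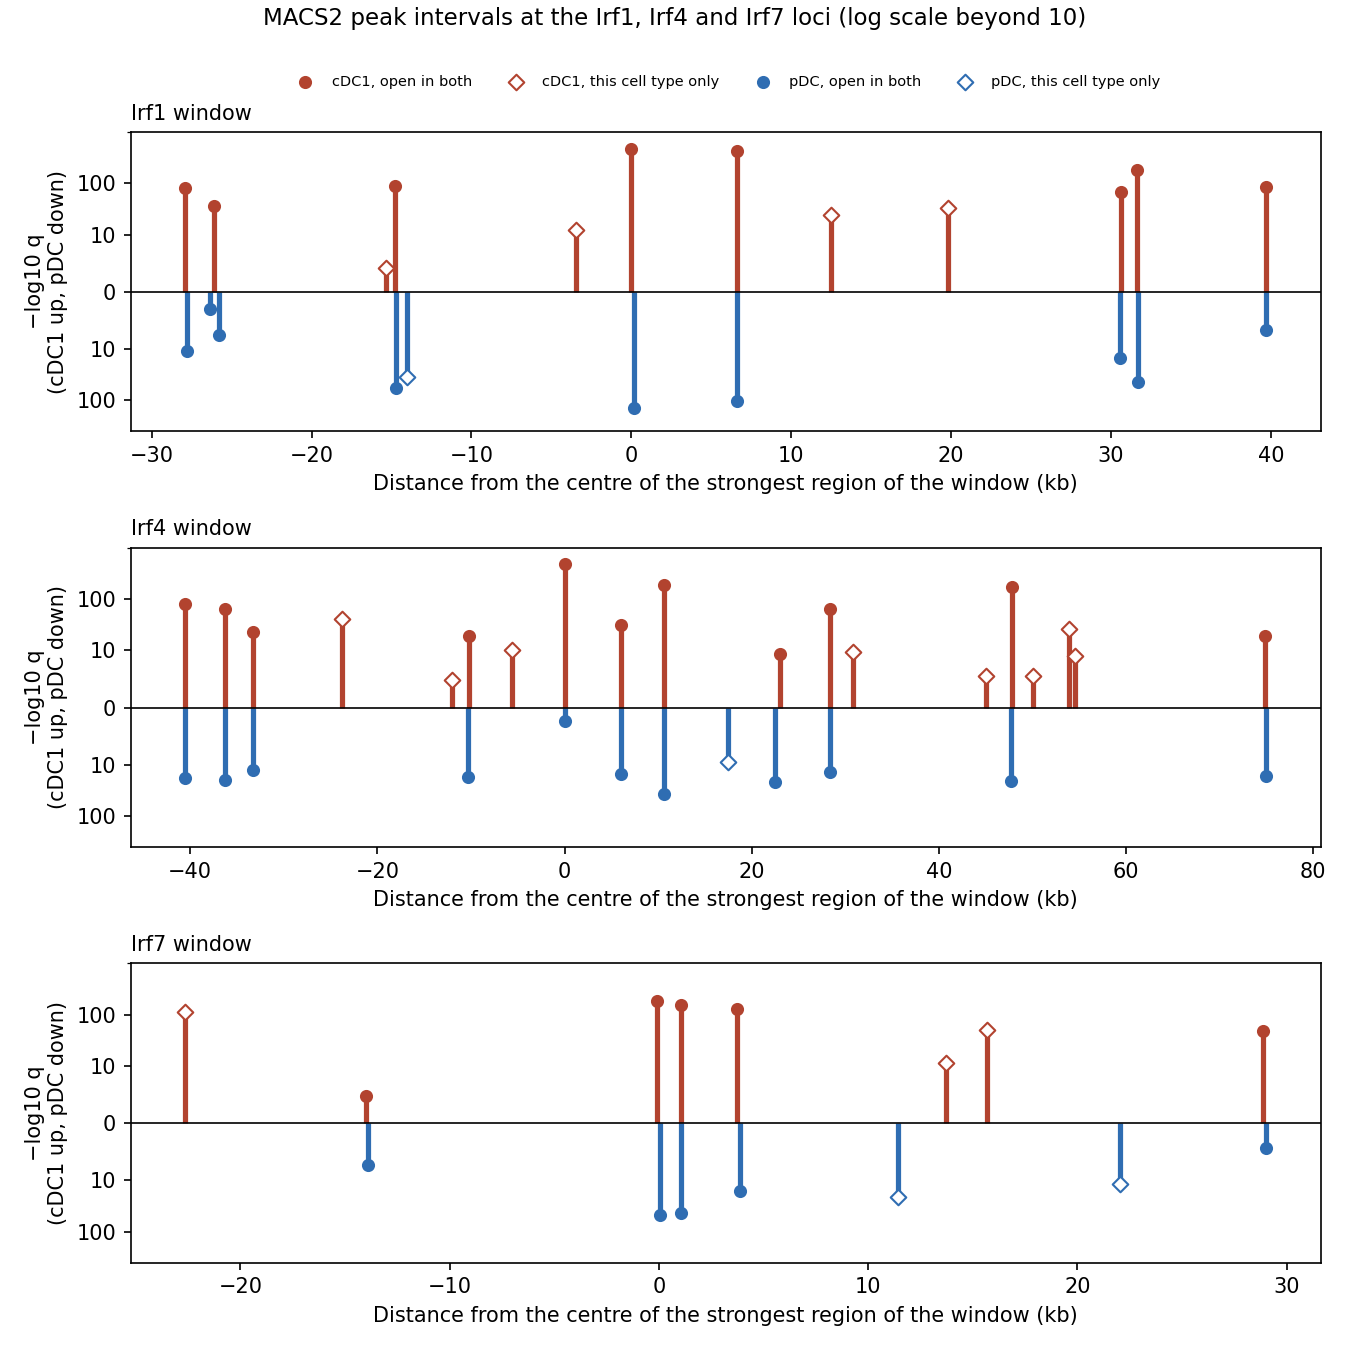
Peak intervals of the Irf1 (top), Irf4 (middle) and Irf7 (bottom) windows, with −log10 q on the y axis (linear to 10, log beyond; cDC1 above the line, pDC below it) against the distance in kb from the centre of the strongest region of the window. Filled circles are intervals open in both cell types and open diamonds those found in one; the strongest Irf4 interval of cDC1 (475) stands above one of the weakest of pDC (2.38).

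By the median, regions open in both cell types were the stronger ones of each window in cDC1. Their median −log10 q in cDC1 was 88.0 at Irf1, 62.7 at Irf4 and 130.3 at Irf7, and that of regions open in cDC1 only was 18.1 at Irf1, 9.38 at Irf4 and 51.1 at Irf7. The whole list showed the same order, with medians of 82.7 for cDC1 intervals open in both and 13.5 for those open in cDC1 only. In pDC this order was not found at every locus, with medians of 29.1 for regions open in both and 34.9 for the 1 region of pDC alone at Irf1, 17.1 and 9.50 at Irf4, and 16.5 and 16.4 at Irf7. Irf7 is where regions of cDC1 alone reached furthest, with 1 of 3 at 111.

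To compare regions open in both, the tag counts of matched footprints were used. A tag count is the whole number that the authors list with each footprint, read here as reads not scaled for depth. A pair is 1 footprint of each cell type, each covering at least 50% of the other, and the pair with the most tags stood for its region. The ratio of cDC1 over pDC was divided by 3.28, the median over all 91319 pairs, and regions at 2-fold or beyond in either direction were called. This median is taken for the difference in depth between the lists, which was not measured. Intervals given with a ratio are exact 95% intervals for 2 counts and cover counting error only.

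Most regions with a pair were within 2-fold of an even scaled ratio. The median on the log2 scale was −0.20 over 7 regions at Irf1, −0.32 over 8 at Irf4 and 0.05 over 4 at Irf7, against −0.01 over all 31914 regions with a pair. Of the 19 regions, 1 (at Irf1) was at least 2-fold higher in cDC1, where 8.93% of all regions were. In the other direction, 5 of 19 (2 at Irf1, 2 at Irf4 and 1 at Irf7) were at least 2-fold higher in pDC, where 12.6% of all regions were. The scaled values of all 19 lay between the 5th and the 95th percentile of all regions, −1.63 and 1.30. Another 5 of the 24 regions open in both had no pair, where 21.6% of all such regions had none. Among them were the 2 most unequal of the 24, both at Irf4, which are described by the highest tag count of the region. By that measure 1 of the 24 regions open in both was at least 2-fold higher in cDC1 (10.4% of all regions) and 5 were in pDC (13.7%), and by fold enrichment 2 were in cDC1 (5.8%) and 1 in pDC (6.34%).

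**Figure D2:**
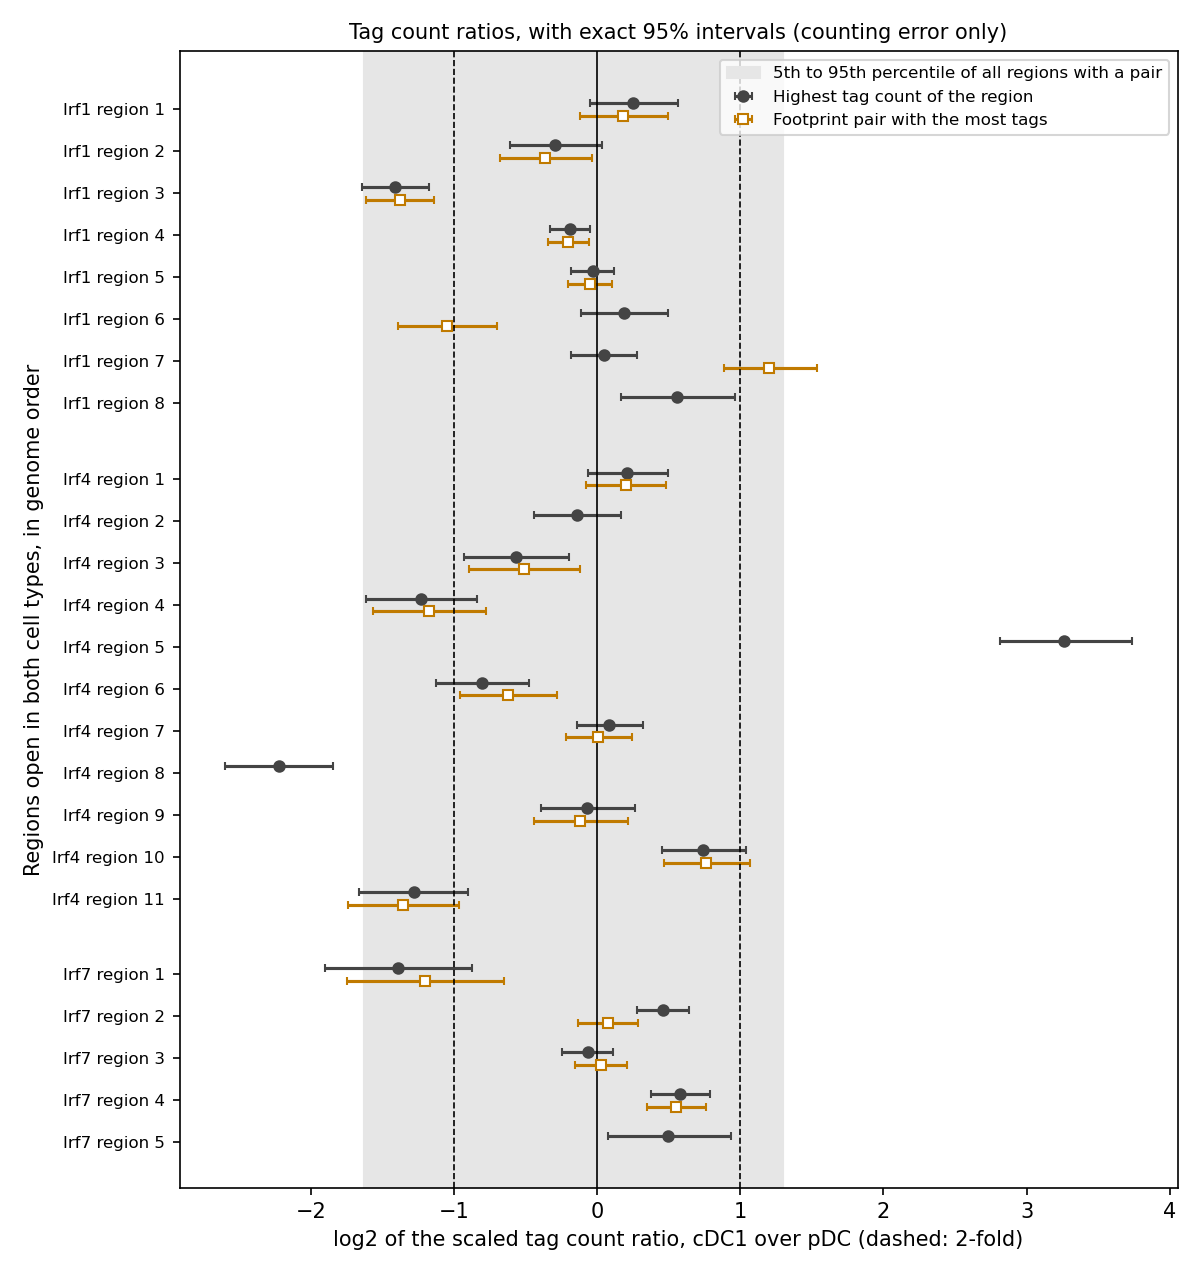
Scaled tag count ratio of cDC1 over pDC (x axis, log2) for the 24 regions open in both cell types, in genome order from the top, by the pair with the most tags (open squares) and by the highest tag count of the region (circles), with exact 95% intervals for counting error. Grey marks the 5th to 95th percentile of the pair ratio over all regions with a pair (−1.63 to 1.30). Irf4 region 5 lies far to the right of it and Irf4 region 8 to the left. Both have no pair and are drawn by the highest tag count, a measure other than that of the grey band.

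At Irf4, the largest difference between the cell types was at chr13:30830200-30830804, which was among the strongest of the cDC1 list and near the lower end of the pDC list. In cDC1 it had a −log10 q of 475, above 97.8% of the cDC1 list, and a fold enrichment over the MACS2 background of 19.1. In pDC it had a −log10 q of 2.38, above 3.48% of the pDC list, and a fold enrichment of 2.54. The interval of pDC lay inside that of cDC1 and their summits were 58 bp apart.

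The footprints of that region did not coincide. In cDC1, 3 footprints at 30830515-30830533, 30830535-30830557 and 30830566-30830579 had 1277, 1300 and 1173 tags, and the fourth, at 30830205-30830242, had 134. In pDC, the footprints at 30830463-30830490 and 30830492-30830513 had 41 and 42 tags. The 2 pDC footprints thus ended just before the cluster of cDC1 footprints began. The highest tag counts, 1300 in cDC1 and 42 in pDC, differed 31.0-fold, and 9.57-fold (7.04 to 13.3) after division by 3.24, the median of that measure over all regions. Only 4 of 39830 regions with footprints in both cell types had a higher ratio. By fold enrichment, scaled in the same manner, the region was 5.19-fold higher in cDC1, with 2 of 40721 regions higher.

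**Figure D3:**
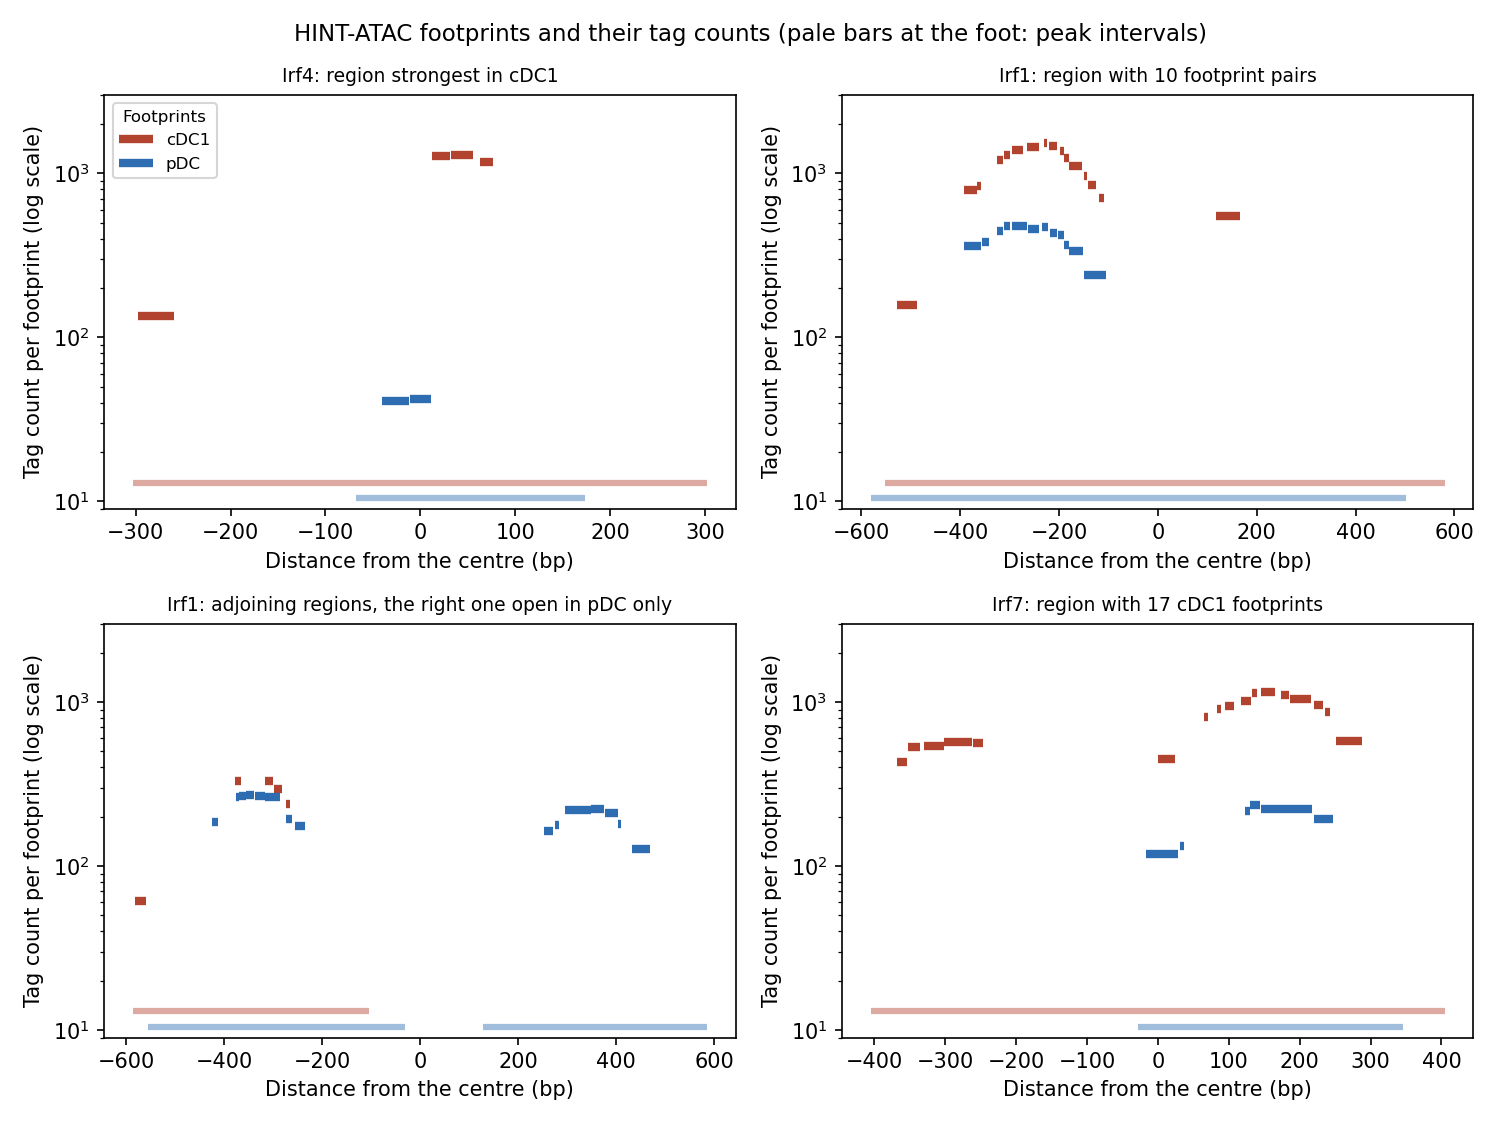
Footprints drawn to scale along 4 stretches (x axis, bp from the centre), at the height of their tag count (y axis, log scale), cDC1 in red and pDC in blue, with peak intervals as pale bars at the foot. The Irf4 region strongest in cDC1 has 3 cDC1 footprints of 1173 to 1300 tags and 2 pDC footprints of 41 and 42 tags, while the scaled ratios of the 10 pairs in the Irf1 region run from 0.670 to 1.03.

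A difference in the other direction was found further along the window, at chr13:30852523-30853627, which was singled out after its values were seen. Its −log10 q was 9.44 in cDC1 and 21.6 in pDC, and only this region and 1 at Irf7 had the higher value in pDC among the 24 regions open in both. It had 7 footprints with at most 102 tags in cDC1 and 11 with at most 147 tags in pDC. The scaled ratio of these highest counts was 0.214 (0.165 to 0.278), or 4.66-fold higher in pDC (3.60 to 6.06), and 97.4% of all regions had a higher ratio. By fold enrichment the scaled ratio was 0.483. The summits lay 741 bp apart and no footprint was shared. The cDC1 interval (30853316-30853627) and the pDC interval (30852523-30853390) overlapped only at their ends. The highest counts lay at 30853434-30853442 in cDC1 and at 30852776-30852788 in pDC, so the ratio compares neighbouring stretches and not the same bases. Where an overlap of 50% of the shorter interval was required, Irf4 regions open in both fell from 11 to 10.

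Of the other strong regions of Irf4, 1 had a scaled ratio near 1 and 1 was higher in cDC1 by less than 2-fold. At chr13:30840784-30841363 (−log10 q 187 in cDC1 and 37.8 in pDC), the top pair had 672 tags in cDC1 and 204 in pDC, a scaled ratio of 1.01 (0.859 to 1.18). All 8 pDC footprints there were shared with cDC1, and 5 of the 9 cDC1 footprints with pDC. At chr13:30877940-30878570 (170.0 in cDC1 and 20.4 in pDC), the top pair had 622 tags in cDC1 and 112 in pDC, a scaled ratio of 1.70 (1.38 to 2.09), which is short of the 2-fold limit although its interval reaches it. This region had 12 footprints in cDC1 and 13 in pDC, and all 5 pairs had a scaled ratio above 1, from 1.32 to 1.70.

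Irf4 also held 2 regions called higher in pDC, both of modest strength. At chr13:30820033-30820444 the pair had 135 tags in cDC1 and 93 in pDC (scaled ratio 0.443, 0.338 to 0.584). At chr13:30904956-30905735 it had 128 tags in cDC1 and 100 in pDC (0.391, 0.298 to 0.513). Both kept more tags in cDC1 before scaling, so the calls rest on the scaling, and 90.3% and 92.5% of all regions with a pair had a higher ratio. Neither was called by fold enrichment, where the scaled ratios were 0.565 and 0.578. The remaining regions with a pair at Irf4 ran from 0.650 to 1.15. The value of 1.15 is that of chr13:30789626-30790197, which crosses the window edge, and its pair lies before the window start. The third region without a pair, chr13:30793945-30794425, had highest tag counts of 358 in cDC1 and 122 in pDC, a scaled ratio of 0.907 (0.736 to 1.12).

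Of the regions open in one cell type at Irf4, 8 were open in cDC1 only. The strongest was chr13:30806453-30806974, with a −log10 q of 41.4 and 5 footprints of 132 to 173 tags in cDC1. Its highest count would equal 53.5 tags at the depth of the pDC list, a level that the highest counts of 12.8% of pDC intervals do not exceed. The other 7 had a −log10 q from 4.90 to 25.7, and 1 of them held no footprint. At the depth of the pDC list chr13:30884189-30884569 would have 55.6 tags, a level that the highest counts of 14.8% of pDC intervals do not exceed. The rest of those with footprints would have 17.6 to 33.4 tags, which the highest counts of at most 0.552% of pDC intervals do not exceed. Their absence from the pDC list is therefore not read as closed chromatin in pDC. The single region of pDC alone, chr13:30847835-30848147, had a −log10 q of 9.50 and 1 footprint of 74 tags in pDC. This count corresponds to 239 tags at the depth of the cDC1 list, above the highest count of 53.9% of cDC1 intervals.

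Irf1 was open in both cell types at 2 of the strongest regions of the 3 windows. At chr11:53576388-53577760, a region of 1373 bp, the −log10 q was 457 in cDC1 and 138 in pDC, above 97.5% of the cDC1 list and 98.0% of the pDC list. The top pair had 1592 tags in cDC1 and 559 in pDC, a scaled ratio of 0.869 (0.789 to 0.959). The region had 16 footprints in cDC1 and 6 in pDC, with 2 pairs, a number that 54.3% of all regions open in both reach, and 6 of the 16 cDC1 footprints were shared. The summits lay 201 bp apart.

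The second, chr11:53583118-53584278, had the most footprint pairs of the 3 loci. Its −log10 q was 432 in cDC1 and 104 in pDC, and the top pair had 1444 tags in cDC1 and 457 in pDC, a scaled ratio of 0.965 (0.868 to 1.07). There 14 of the 16 cDC1 footprints and 11 of the 13 pDC footprints were shared, in 10 pairs, a number that 1.11% of all regions open in both reach. The scaled ratios of the pairs ran from 0.670 (0.591 to 0.761) at 53583306-53583332 to 1.03 (0.929 to 1.15) at the cDC1 footprint 53583478-53583494, so the tags were not even along the whole region. Of the 10 pairs, 5 had the same first and last base in both cell types, at 53583306-53583332, 53583334-53583340, 53583374-53583385, 53583387-53583398 and 53583510-53583518. Another Irf1 region, chr11:53550501-53551465, had 9 pairs, which 1.84% of regions reach, at 288 tags in cDC1 and 113 in pDC for the top pair (0.778, 0.624 to 0.976).

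By scaled tag counts, the clearest excess of pDC at Irf1 was a pair of adjoining regions. A weak region of cDC1 alone, chr11:53561555-53561888 (−log10 q 4.12), lay 194 bp before them. At chr11:53562083-53562637 the top pair had 330 tags in cDC1 and 262 in pDC, a scaled ratio of 0.385 (0.326 to 0.454). The highest counts of the region, 331 in cDC1 and 272 in pDC, gave 0.376. Tags were higher in cDC1 before scaling by either measure, so this call rests on the scaling. By fold enrichment, 9.61 in cDC1 and 7.26 in pDC, the scaled ratio was 0.915, so this difference was seen in the tag counts and not in the enrichment. After a gap of 160 bp followed chr11:53562798-53563253, the strongest region of pDC alone in the 3 windows, with a −log10 q of 34.9 and 7 footprints of 127 to 222 tags in pDC. At the depth of the cDC1 list 222 tags correspond to 718, above the highest count of 84.4% of cDC1 intervals, and no cDC1 interval was listed there.

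Calls at 2 neighbouring Irf1 regions depended on which footprint stood for the region. At chr11:53608257-53609148 the pair with the most tags had 694 in cDC1 and 92 in pDC, a scaled ratio of 2.30 (1.85 to 2.89), the only call of higher accessibility in cDC1 by pairs. The highest tag counts there, 694 in cDC1 and 208 in pDC, gave 1.03, and the other pair of the region, at 53608890-53608902 in both cell types, had 433 tags in cDC1 and 208 in pDC, a scaled ratio of 0.636 (0.537 to 0.753). At chr11:53607318-53607948 the only pair had 184 tags in cDC1 and 116 in pDC (0.484, 0.382 to 0.616), a call of higher accessibility in pDC, while the highest counts, 428 in cDC1 and 116 in pDC, gave 1.14. Neither region was called by the highest tag count or by fold enrichment.

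The remaining Irf1 regions open in both were chr11:53548779-53549523, with 424 tags in cDC1 and 114 in pDC in the top pair (1.14, 0.921 to 1.41), and a region without a pair, the last of the window. At chr11:53616515-53617022 the fold enrichment was 9.75 in cDC1 and 3.35 in pDC, a scaled ratio of 2.01 and the most unequal of Irf1. By the highest tag count there, 314 in cDC1 and 66 in pDC, the scaled ratio was 1.47 (1.12 to 1.95). Of the 4 Irf1 regions open in cDC1 only, chr11:53596593-53597223 was the strongest, with a −log10 q of 33.0 and 7 footprints of 107 to 268 tags in cDC1. The other 3 had a −log10 q from 4.12 to 24.0 in cDC1. At the depth of the pDC list the highest count of the strongest would be 82.8 tags, and those of the other 3 would be 33.4 to 64.3. The highest counts of 0.552% of pDC intervals do not exceed 33.4 tags, and those of 23.4% do not exceed 64.3.

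At Irf7, the gene whose product drives type I interferon in pDC, the 3 strongest regions followed each other and were open in both cell types. At chr7:148450594-148451544 (−log10 q 189 in cDC1 and 47.0 in pDC) the top pair had 845 tags in cDC1 and 245 in pDC, a scaled ratio of 1.05 (0.912 to 1.22). Only 88 bp further, at chr7:148451633-148452570 (153 in cDC1 and 42.5 in pDC), the top pair had 1072 tags in cDC1 and 322 in pDC, a scaled ratio of 1.02 (0.897 to 1.15). At chr7:148454397-148455206 (130.3 in cDC1 and 16.5 in pDC) it had 1138 tags in cDC1 and 237 in pDC, a scaled ratio of 1.47 (1.27 to 1.69). None of these 3 was called. By fold enrichment the scaled ratios were 0.802, 0.758 and 1.02 in the same order. By the highest tag count they were 1.37 (1.21 to 1.56), 0.955 (0.845 to 1.08) and 1.49 (1.30 to 1.72). The pair intervals of the first 2 hold 1 and the measures differ, so no direction is given for them.

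The highest tag counts of this Irf7 cluster were 1072 to 1342 in cDC1 and 237 to 347 in pDC, and its fold enrichment was 4.20 to 4.83 in cDC1 and 2.84 to 4.17 in pDC. For comparison, the Irf4 region with 1300 tags in cDC1 had a fold enrichment of 19.1 in cDC1, so tags and enrichment did not go together across the loci. The number of footprints also differed between the cell types. The first region had 9 in cDC1 and 10 in pDC, the second 4 in cDC1 and 11 in pDC, and the third 17 in cDC1 and 6 in pDC. All 4 cDC1 footprints of the second region were shared with pDC, while only 3 of its 11 pDC footprints were shared with cDC1.

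The 1 Irf7 region called higher in pDC was weak in both lists. At chr7:148436820-148437478 the −log10 q was 4.83 in cDC1 and 7.34 in pDC, with 2 footprints in cDC1 and 11 in pDC, and the pair had 71 tags in cDC1 and 50 in pDC (0.434, 0.298 to 0.636). By fold enrichment the scaled ratio was 0.521, which is no call. The last region of the window, chr7:148479612-148480357, had no pair, and its −log10 q was 47.3 in cDC1 and 4.34 in pDC. Its highest tag counts of 260 in cDC1 and 57 in pDC gave a scaled ratio of 1.41 (1.05 to 1.91).

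Irf7 also held the strongest region of cDC1 alone in the 3 windows. At chr7:148428093-148428722 the −log10 q was 111, the fold enrichment 9.78 and the 5 footprints had 281 to 423 tags in cDC1, with no pDC interval. Its highest count corresponds to 131 tags at the depth of the pDC list, which is at or above the highest count of 59.5% of pDC intervals. The other regions of cDC1 alone, at 148464563-148465000 and 148466540-148466970, had a −log10 q of 11.7 and 51.1 in cDC1 and would reach 40.2 and 78.2 tags at the depth of the pDC list. They lay between the 2 regions of pDC alone, chr7:148462293-148462704 (−log10 q 20.8, 5 footprints of 102 to 130 tags) and chr7:148472886-148473345 (12.1, 6 footprints of 55 to 97 tags). At the depth of the cDC1 list the highest counts of these 2 correspond to 421 and 314 tags. These are at or above the highest counts of 71.3% and 62.8% of cDC1 intervals.

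Footprints found in both cell types were then counted at each locus. A footprint was counted as shared where footprints of the other cell type covered at least 50% of its bases. At Irf1 47 of 89 cDC1 footprints (52.8%, Wilson interval 42.5 to 62.8%) and 35 of 76 pDC footprints (46.1%, 35.3 to 57.2%) were shared. At Irf4 the shares were 29 of 112 in cDC1 (25.9%, 18.7 to 34.7%) and 28 of 63 in pDC (44.4%, 32.8 to 56.7%), and at Irf7 22 of 54 in cDC1 (40.7%, 28.7 to 54.0%) and 15 of 51 in pDC (29.4%, 18.7 to 43.0%). Over all footprints 28.6% were shared in cDC1 and 44.4% in pDC. The cDC1 interval at Irf1 lay above its genome share and the pDC interval at Irf7 below it, whereas Irf4 was near the genome share in both lists. Footprints of 1 region are not independent, and 14 of the 47 shared cDC1 footprints of Irf1 lay in 1 region and 11 in another. The Wilson intervals may therefore be too narrow, and these departures from the genome share are description only. Among pDC footprints the order of Irf1 and Irf4 was not settled, since their intervals overlap and an overlap of 1 bp gave 56.6% at Irf1 and 57.1% at Irf4.

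**Figure D4:**
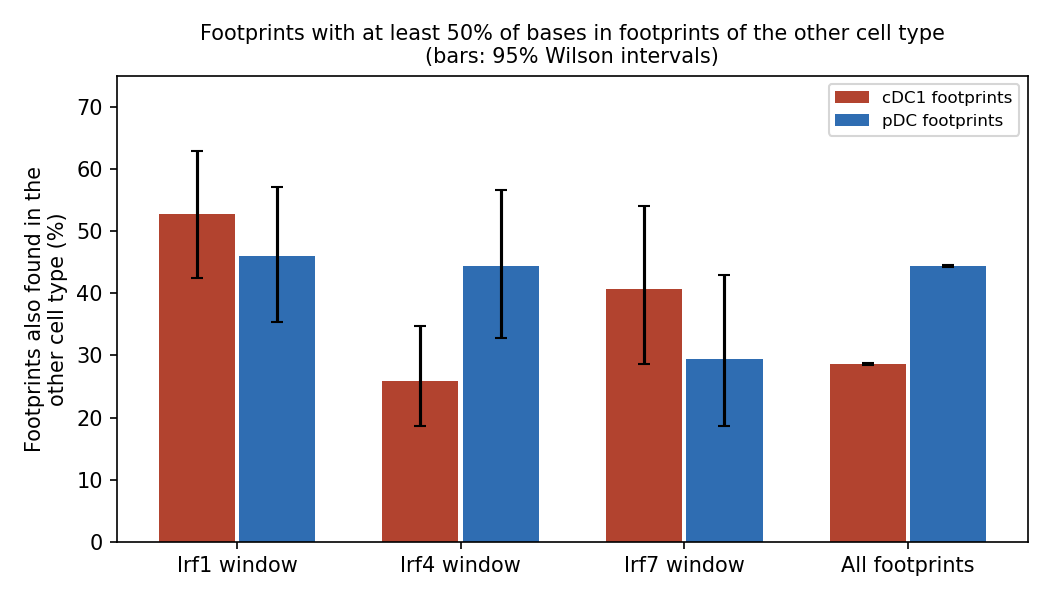
Share of footprints (y axis, percent) with at least 50% of their bases in footprints of the other cell type, for cDC1 (left bar of each group) and pDC (right bar), with 95% Wilson intervals for counting error. cDC1 footprints of Irf1 (52.8%) are above the share over all cDC1 footprints (28.6%), and pDC footprints of Irf7 (29.4%) are below that over all pDC footprints (44.4%). Footprints of the same region are not independent, so the intervals may be too narrow.

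Only footprints of regions open in both cell types can be shared, and these were 86.5% of cDC1 footprints at Irf1, 66.1% at Irf4, 68.5% at Irf7 and 59.7% over the whole list. In pDC they were 90.8% at Irf1, 98.4% at Irf4, 78.4% at Irf7 and 84.2% over the whole list. Within regions open in both, the shares were 61.0% in cDC1 and 50.7% in pDC at Irf1, 39.2% in cDC1 and 45.2% in pDC at Irf4, and 59.5% in cDC1 and 37.5% in pDC at Irf7, with 47.9% in cDC1 and 52.7% in pDC over all such regions. Of the pairs in the regions of each window, 7 of 29 at Irf1 (24.1%), 2 of 20 at Irf4 (10%) and 1 of 9 at Irf7 (11.1%) had the same first and last base in both cell types, against 21.0% of all pairs. The Irf4 pairs include 3 of chr13:30789626-30790197, a region that crosses the window edge. These 3 pairs, 1 of them with the same bases, lie before the window start and are not among the footprints counted as shared. Median tag counts of the footprints were 341 in cDC1 and 116 in pDC at Irf1, 126.5 in cDC1 and 90 in pDC at Irf4, and 538.5 in cDC1 and 133 in pDC at Irf7. At Irf4, 50% of the 30 cDC1 footprints with at least 212 tags, the median of the cDC1 list, were shared. The same share over all footprints was not computed, and the part of tag counts in these shares was not tested.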

How the data were processed

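Omni-ATAC-seq of cDC1 and pDC, 2 replicates each, was analysed from the authors' merged lists of peaks and of footprints, 1 of each kind per cell type. Per the study's methods and the submitters' processing notes, reads were trimmed with Trim Galore, aligned to mm9 with Bowtie2, filtered with SAMtools and used to call peaks with MACS2, and footprints came from HINT-ATAC; no tool versions were stated. Positions run past the end of GRCm38 on 8 of 21 chromosomes, so the lists were taken as mm9. The deposited −log10 q and fold enrichment (a ratio over the MACS2 background) are the authors' values per summit. The methods name a fixed genome background, but cDC1 summits at a −log10 q of 95 to 105 had fold enrichments from 3.03 to 11.6, so how that background was set is open. The deposited value of a footprint was read as a tag count not scaled for depth, from its whole numbers, and its counting window was not stated. Its median was 212 in cDC1 and 100 in pDC, and from this the cDC1 list was taken as the deeper one. The read depth per replicate was not used here.

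Summits of 1 interval, listed on separate lines, were joined with the largest −log10 q. Regions are intervals of both lists merged at an overlap of 1 bp. Footprints were paired 1 to 1 at 50% of both, and a region was called at a scaled ratio of 2-fold. Where no pair existed, the highest tag count was used and divided by its own median ratio (3.24); fold enrichments were divided by theirs (1.45). Python 3.11.15, numpy 2.4.6, pandas 2.3.3, scipy 1.17.1 and matplotlib 3.10.9 were used. Region merging, footprint pairing, scaling and the count intervals were tested on simulated lists with 1 footprint of each cell type per region open in both. The choice of a pair among several, the highest tag count and footprint sharing were not tested in this way. Reads carry no molecular identifiers and neighbouring footprints can count the same reads, so 95% intervals cover counting error only and may be too narrow. The sources do not say whether replicates were separate cultures. The windows, lists and settings were chosen with earlier results of these data known. Named regions are, per window, the 3 with the largest −log10 q, all called regions and the strongest region of each cell type alone; others were added as described. Promoters were matched by gene symbol in RefSeq (GRCm38.p6), 4 entries for 3 genes, and 1 of the motifs planned for them is not reported here. Surface marker genes, other interferon regulatory factor genes and sequences inside peaks were not analysed here, for want of an mm9 annotation and genome among the references used.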

Additional observations from a re-analysis of the deposited data

How the results depend on the processing

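No paired analysis was possible because replicates were merged upstream, and for the same reason no replicate could be left out. With only intervals at a −log10 q of 50 or more kept, 18 of 39 cDC1 and 3 of 29 pDC intervals were left. The share of regions open in both was then 42.9% of 7 at Irf1, 0% of 6 at Irf4 and 0% of 5 at Irf7, against 23.0% over all regions. No pDC interval reached this limit at Irf4, where the highest value was 37.8, or at Irf7, where it was 47.0. The median log2 ratio at Irf7 was 0.46 by the highest tag count and −0.32 by fold enrichment (0.05 by pairs), so no direction can be given there; the cause was not tested. The Irf1 region starting at 53607318, −1.05 by its pair, was 0.19 by the highest tag count. The share of footprints found in both depended most on the definition. Counted as pairs, it was 32.6% of cDC1 footprints at Irf1, 15.2% of cDC1 and 27.0% of pDC footprints at Irf4, and 16.7% of cDC1 and 17.6% of pDC footprints at Irf7. Over the whole lists, 91319 pairs were found among 513689 cDC1 and 312959 pDC footprints. At Irf4 an overlap of 1 bp gave 57.1% of pDC footprints. Among footprints that reached their list's median tag count, it was 50% in cDC1 and 60.9% in pDC there, and 56.1% in cDC1 and 46.8% in pDC at Irf1, so the order of the loci in pDC turned. In regions open in both it was 39.2% of cDC1 footprints at Irf4 and 59.5% at Irf7, against 47.9% over all such regions. For the overlap of 1 bp and for the median tag count, the share over all footprints was not computed. The other 41 summary values moved by less than their error or 1.5 times. Of single regions, 16 other values moved, most of them under fold enrichment, and 78 did not. A region missing from the pDC list cannot be told apart from one too weak for the depth of that list.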
